A study of Mus musculus with 6 samples.

Results

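Open chromatin at 10 genes of fibroblast growth factor (FGF) signalling was compared between beige, white and brown adipocytes. The genes were the ligands Fgf1, Fgf2, Fgf7, Fgf9, Fgf10, Fgf16 and Fgf21, the receptors Fgfr1 and Fgfr2 and the co-receptor Klb, out of 21938 protein-coding genes in the GENCODE annotation of the mouse genome mm10. For each gene, the peaks with a summit from 50 kb before to 50 kb after it were taken, and a peak with its summit within 1 kb of a protein-coding start site was called a promoter peak. Peaks of different libraries that overlapped were merged into regions, of which 218 of 194610 had their summit in the windows of these genes.

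The data were 6 peak lists from the assay for transposase-accessible chromatin with sequencing (ATAC-seq), which marks DNA that a transposase can enter. All cells came from the stromal vascular fraction, the mixed progenitor-rich cells left when mature fat cells are removed, of wild-type male C57BL/6J mice aged 3 to 4 weeks, and had been differentiated in culture for 7 days. The 2 beige and 2 white libraries were made from inguinal (subcutaneous) fat and the 2 brown libraries from brown fat. The beige and brown medium held 5 µM dexamethasone, 0.5 mM isobutyl methylxanthine, 1 nM T3 and 1 µM rosiglitazone, and the white medium held 1 µM dexamethasone and 0.5 mM isobutyl methylxanthine. Insulin was labelled as 5 µg/ml in all media, whereas the methods of the study give other amounts, lower in the beige than in the white medium, so equal insulin cannot be assumed. Beige and brown libraries thus shared a medium and beige and white libraries a depot, so that neither can be told apart from the cell type in a single comparison. The libraries of a condition are described as biological replicates, and whether they came from different mice is not stated.

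FGFs are secreted proteins that bind receptor tyrosine kinases on the cell surface. Most act on neighbouring cells and stay bound to heparan sulphate, while Fgf21 circulates as a hormone and needs the co-receptor β-Klotho, the product of Klb, to signal through Fgfr1. In fat, Fgf1 and Fgf2 act on preadipocytes and on tissue remodelling, Fgf10 promotes the differentiation of preadipocytes, and Fgf21 is linked to thermogenesis and insulin sensitivity.

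The lists held 109143 to 127490 peaks, of which 131 to 159, or 0.120% to 0.132% of a list, lay in the 10 windows. The 2 brown lists were the shortest. Of the regions open in either library of a pair, 66.9% were open in both beige libraries, 56.9% in both white and 60.7% in both brown, and 52.4% to 62.5% in pairs from different conditions, so a difference between single libraries was common. Fold and -log10 q describe a peak against its own library. Signal was therefore compared by the within-list percentile. This is the rank of a peak by fold, counted from the lowest, as a percentage of the peaks of its list. Tied peaks share their mean rank. Where -log10 q is given, it shows how far a peak lies from a q threshold. It can differ at like percentiles. At the Fgfr1 promoter, with percentiles of 68.9 to 75.6, it was 84.8 and 97.7 in beige and 52.7 and 39.3 in white. A fixed q threshold can thus act unequally on the lists. No difference between conditions was tested, since an exact two-sided permutation test cannot give a p below 0.333 for 2 libraries against 2, or below 0.133 for 2 against 4. Each count is instead set beside the same count over all protein-coding genes or over the 155813 regions within 50 kb of them. Promoters of adipocyte genes fixed as markers were open in all 6 libraries for 10 of 10 genes, against 62.0% of all protein-coding genes. Their percentiles varied, from 2.54 to 62.1 for Adipoq and 5.23 to 58.5 for Plin1 to 71.5 to 83.7 for Pparg. Of the markers of other cells, the promoters of Csf1r, Itgam and Ptprc (macrophages and other leukocytes), Cdh5 and Emcn (endothelium) and Ly6a (progenitors) had no peak in any library, while those of 2 of 6 macrophage, 3 of 6 endothelial and 4 of 6 progenitor markers were open in all 6. The endothelial markers open in all 6, Pecam1, Kdr and Tek, had percentiles of 65.6 to 89.8. Depot markers were mixed. Of 6 brown depot markers, Lhx8, Ebf2 and Prdm16 were open in all 6 libraries, with Prdm16 ranked highest in white, Zic1 in both brown libraries and beige replicate 2, Epsti1 in white replicate 2 alone, and Ucp1, the uncoupling protein of thermogenic fat, in brown alone at low percentiles of 9.12 and 4.23. Of 5 inguinal depot markers 4 were open in all 6 libraries, with Hoxc10 ranked highest in brown, and Hoxc9 had peaks in 3 inguinal libraries and in no brown library.

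Within 1 kb of a start site, promoters of the FGF genes were open in nearly every library, but their median rank was below that of all gene promoters. A promoter peak was present in all 6 libraries for 9 of the 10 genes, against 62.0% of all protein-coding genes. The exception was Fgf21, with no promoter peak in white replicate 1. With promoters of 250 bp, 6 of the 10 genes had a peak in all 6 libraries, and the share of all genes at that distance was not computed. The median percentile of the strongest promoter peak over genes and libraries was 62.1, whereas that of all genes with such peaks was 87.4. Ranking the lists by -log10 q in place of fold raised both, to 73.3 and 92.2.

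**Figure D1:**
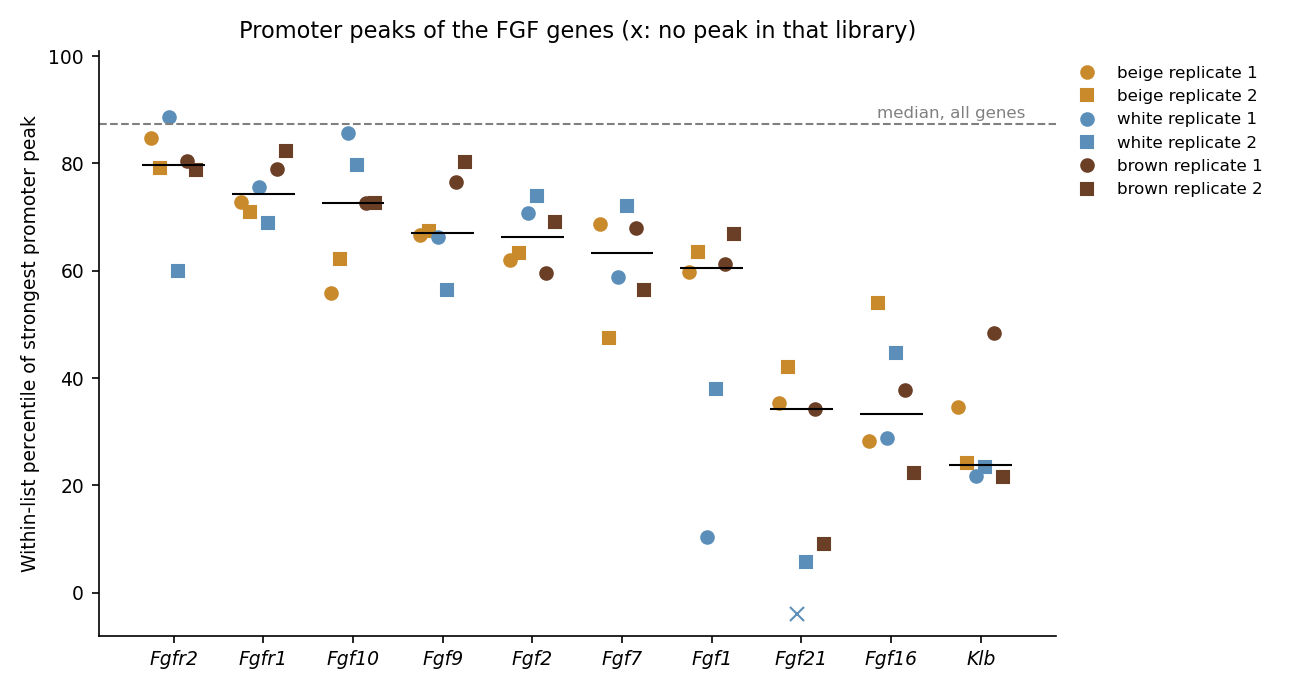
Within-list percentile of the strongest promoter peak of each FGF gene, with 1 symbol per library and a black line at the median over libraries with a peak. The receptors Fgfr2 and Fgfr1 stand highest, at medians of 79.8 and 74.3, and Klb lowest at 23.8 for promoters of 1 kb, all below the dashed median of all genes, 87.4.

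With promoters of 1 kb the receptors had the highest median ranks, while with 3 kb Fgf1 stood above them at a median of 90.8, against 79.8 for Fgfr2 and 75.8 for Fgfr1. Fgfr2, whose epithelial and mesenchymal splice forms bind different ligands, had percentiles of 84.8 and 79.2 in beige, 88.6 and 60.0 in white and 80.4 and 78.8 in brown replicates 1 and 2. Fgfr1, the main receptor for Fgf21 in fat, had 72.9 and 70.9 in beige, 75.6 and 68.9 in white and 78.9 and 82.3 in brown. Both brown libraries thus ranked the Fgfr1 promoter above all 4 inguinal libraries, and the Fgfr2 promoter showed no such order. The median promoter of all genes was also highest in brown, at 88.3 and 89.7, against 84.4 to 87.9 in the inguinal lists. How many promoters of all genes showed such an order, here or at the members below, was not counted. Among genes with a promoter peak in all 6 libraries, 31.4% had a lower median than Fgfr2 and 23.6% a lower median than Fgfr1.

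The co-receptor Klb had the lowest median of the 10 genes with promoters of 1 kb ranked by fold, 23.8. Its percentiles were 34.6 and 24.1 in beige, 21.7 and 23.5 in white and 48.4 and 21.6 in brown. The peak was present everywhere, with its summit 68 to 183 bp inside the gene, but only 1.26% of genes open in all 6 libraries had a lower median. Both beige values stood above both white values by a margin of less than 1 percentile point, and the brown libraries differed from each other by more than the beige libraries did. The place of Klb in the order depended on the setting. With 3 kb its median was 57.5, above those of Fgf16 (33.3) and Fgf21 (34.3), and ranked by -log10 q it was 33.2, above that of Fgf16 (26.7). With 250 bp the medians of Fgf9 (3.82) and Fgf21 (22.3) were lower, and the Fgf21 median was 21.7 without beige replicate 1 or 2 and 22.3 without brown replicate 1, against 23.5 for Klb in each case.

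Of the paracrine ligands, Fgf10, Fgf9, Fgf2, Fgf7 and Fgf1 came next in the order of medians and Fgf16 near its end. Fgf10 had percentiles of 55.8 and 62.1 in beige, 85.6 and 79.7 in white and 72.7 and 72.7 in brown, with no overlap between conditions. The white replicate 1 value came from a region 359 bp upstream of the start site, however, and the values of the other libraries from a region 442 to 472 bp downstream of it. In that downstream region alone white replicate 1 had 67.9, so that white overlapped brown and stayed above beige. With promoters of 250 bp the Fgf10 median was 31.8, against 72.7 with 1 kb.

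Fgf9 had percentiles of 66.6 and 67.4 in beige, 66.2 and 56.5 in white and 76.6 and 80.3 in brown, all from a region with summits 511 to 526 bp upstream of its start site at 58072686 on chromosome 14, so both brown values were the highest. A further region at the most upstream Fgf9 start site had the reverse order of beige and white, with 9.60 and 9.55 in beige and 47.9 and 28.1 in white, and 17.2 and 6.45 in brown. Brown was thus highest at the first region only. Beige stood above white there by a narrow margin, 66.6 against 66.2 at the closest. The start site at 58075115 had weak peaks in white replicates 1 and 2 (2.18 and 10.5) and brown replicate 2 (5.45), and none in the other libraries. The Fgf9 median fell from 67.0 to 3.82 with promoters of 250 bp, which leave out the first of these regions.

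Fgf2 was open at both of its groups of start sites in every library. Its strongest promoter peak had percentiles of 62.0 and 63.3 in beige, 70.8 and 73.9 in white and 59.6 and 69.1 in brown, but these values mixed 2 groups of start sites. Those of beige, white and brown replicate 1 came from the upstream group and those of replicate 2 from the group further downstream, at 37380755 on chromosome 3. In the upstream group alone the percentiles were 62.0 and 60.9 in beige, 70.8 and 65.3 in white and 59.6 and 64.8 in brown, so white was highest by less than 1 point. In the downstream group they were 57.9 and 63.3 in beige, 51.2 and 73.9 in white and 57.4 and 69.1 in brown, which overlapped. Fgf7, which encodes keratinocyte growth factor, had 68.8 and 47.5 in beige, 58.8 and 72.1 in white and 68.0 and 56.4 in brown, with overlapping conditions. Fgf16, a ligand known from brown fat and heart, had 28.2 and 54.0 in beige, 28.8 and 44.6 in white and 37.8 and 22.4 in brown, also with overlap. The Fgf16 values came from 3 different regions within 1 kb of its single start site, none of which was open in all 6 libraries.

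In the order of medians, which ran Fgfr2, Fgfr1, Fgf10, Fgf9, Fgf2, Fgf7, Fgf1, Fgf21, Fgf16 and Klb, the ranges of all 9 pairs of neighbours overlapped. The genes with promoter percentiles most like those of a member, by the mean absolute difference over the 6 libraries among 13547 genes, were Cited2 for Fgfr1 (0.932 points), Cttnbp2nl for Fgfr2 (2.37), Syndig1 and C530025M09Rik for Fgf2 (both 1.43), Arc for Fgf9 (2.31), Apbb1ip for Fgf10 (2.69) and Fam78a for Klb (3.91). For Fgf7, Fgf16 and Fgf1 the nearest were Htr1b (4.00), Itga11 (4.48) and 1700007K13Rik (3.41).

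Fgf1, a ligand for all FGF receptors, is transcribed from alternative promoters, and these differed. The start site at 38918771 on the minus strand of chromosome 18 lay in a region (chr18:38918601-38918907, mm10) with percentiles of 59.8 and 63.5 in beige, 3.13 in white replicate 2 and 61.2 and 66.8 in brown, and with no peak in white replicate 1. Both beige and both brown libraries thus ranked it far above the white libraries. The peak in white replicate 2 had a -log10 q of 1.92, close to the authors' threshold of 1.30, against 13.8 or more in the other 4 libraries. At a q value under 0.01 the region was open in beige and brown and not in white, and likewise at a q value under 0.00001. The region counts as partly shared at the authors' threshold and was singled out after its values were seen.

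By its strongest peak, the most upstream Fgf1 start site, at 38929472, did not show this pattern. That peak had percentiles of 40.3 and 38.7 in beige, 10.3 and 38.0 in white and 27.5 and 45.2 in brown, which overlapped. These values came from different regions, however. The region 292 bp downstream of the start site had 40.3 and 38.7 in beige, 18.6 in white replicate 2 and 27.5 and 23.1 in brown. It had no peak in white replicate 1, so beige and brown ranked above white there too. The region 58 bp upstream had 15.7 and 34.4 in beige, 10.3 and 38.0 in white and 23.2 and 45.2 in brown. A stronger region lay 1093 bp upstream of this start site, just beyond the promoter limit of 1 kb. It had 83.1 and 89.8 in beige, 95.1 and 93.8 in white and 88.8 and 91.0 in brown, so white ranked highest there. The start sites of Fgf1 at 38858748, 38866747 and 38867003 had no promoter peak in any library.

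At the Fgf21 promoter, the region over the start site ranked highest in beige and a region further upstream in brown replicate 1. The first (chr7:45615323-45615709, mm10) had percentiles of 35.4 and 42.1 in beige, 5.65 in white replicate 2 and 9.17 in brown replicate 2, and no peak in white replicate 1 and brown replicate 1. The peaks of white replicate 2 and brown replicate 2 had a -log10 q of 3.29 and 3.58, against 7.09 and 11.0 in beige, and at a q value under 0.00001 the region was open in beige alone. The other region, 972 bp upstream (chr7:45616314-45616808), had percentiles of 23.9 and 29.9 in beige, 14.9 in white replicate 2 and 34.3 and 8.62 in brown, and no peak in white replicate 1. By the strongest promoter peak, beige replicate 1 (35.4) and brown replicate 1 (34.3) were thus close. The 250 bases before the Fgf21 start site, as given by RefSeq for GRCm38.p6 (chr7:45615491-45615740, minus strand, the same bases as in the genome), are printed because the beige summits lay 27 and 70 bp upstream of the start.

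Fgf21 upstream promoter: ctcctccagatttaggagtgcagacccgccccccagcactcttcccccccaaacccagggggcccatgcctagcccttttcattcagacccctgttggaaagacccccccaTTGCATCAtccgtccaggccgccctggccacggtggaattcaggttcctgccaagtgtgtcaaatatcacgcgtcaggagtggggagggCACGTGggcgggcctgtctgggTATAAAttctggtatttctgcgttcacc

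The capitals mark 3 matches, which begin 139, 50 and 28 bases before the start site. The first is TTGCATCA, the other strand of the composite of C/EBP and ATF proteins TGATGCAA, through which ATF4 acts in the amino acid response. The second is the E-box CACGTG and the third is TATAAA, the TATA box. Of 32851 RefSeq promoter windows of this length, 0.791% held the composite, 6.02% the E-box and 12.4% the TATA box on either strand. The motifs were chosen with the bases in view, and a match is no evidence of binding.

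Beyond the promoters, the windows held mostly regions that were shared by all libraries or varied between single libraries. Of the 218 regions, 75 (34.4%) were open in all 6 libraries, against 32.4% of all regions near genes, and 133 followed no condition. The nearest protein-coding start site was the member's own for 156 regions and that of another gene for 62. No other gene started in the windows of Fgf1, Fgf7, Fgf9, Fgf10, Fgf16 and Fgfr2, whereas the Fgf21 window held the start sites of Bcat2, Fut1, Izumo1, Mamstr and Rasip1. None of the 9 regions of the Fgf21 window that were open in all 6 libraries lay nearest to Fgf21. The strongest shared region of that window lay in a coding exon of Bcat2 (percentiles of 86.3 to 97.2), that of the Fgf2 window 30 bp upstream of Cetn4 (87.6 to 99.3) and that of the Klb window 28 bp upstream of Rfc1 (94.6 to 98.6). At Fgf1 the strongest shared region lay downstream of the gene, in an intron of Arhgap26 (91.4 to 98.2). At Fgfr1 it was intergenic, 53041 bp upstream of the nearest Fgfr1 start site (74.0 to 94.2). These regions were chosen among those open in all 6 libraries. At Fgf7 a region without a peak in brown had a higher mean percentile (77.8) than the strongest shared one (68.5).

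Only 10 of the 218 regions were open in both libraries of 1 or 2 conditions and in none of the rest. By condition, 2 regions were open in beige and brown but not white (0.917%, against 1.29% of all regions), 4 in beige and white but not brown (1.83%, against 1.18%) and 1 in white and brown but not beige (0.459%, against 0.226%). A single region was open in beige alone (0.459%, against 2.04%), 2 in white alone (0.917%, against 1.18%) and 0 in brown alone (against 0.811%). With counts of 0 to 4, no share was read as a property of the FGF genes, and the regions are described singly.

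**Figure D2:**
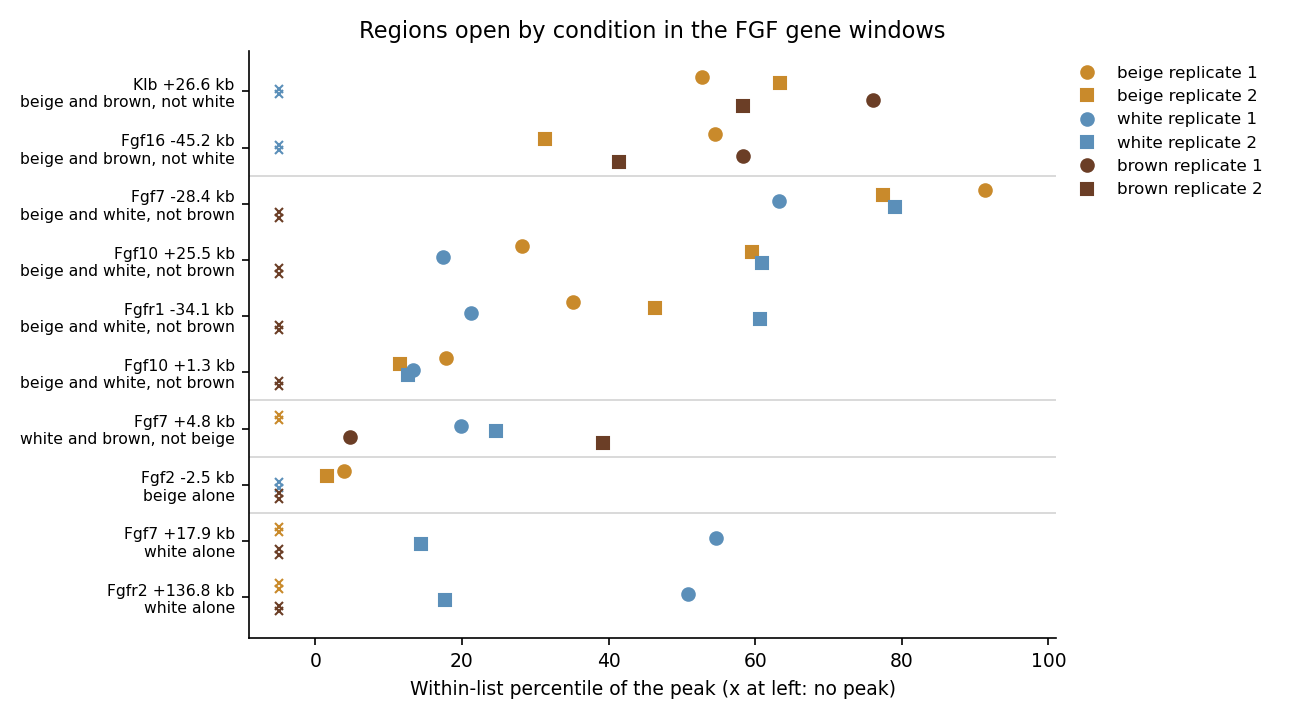
Within-list percentile of the peaks in the 10 regions open by condition, named by gene and distance of the summit from the nearest start site of that gene, with 1 symbol per library and a cross at the left for a library with no peak. The Klb region has 4 peaks between 52.8 and 76.1 and none in white, and the Fgf7 region upstream of the gene 4 peaks between 63.2 and 91.4 and none in brown.

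The co-receptor gene Klb held an intronic region that was open in beige and brown adipocytes and had no peak in white (chr5:65374752-65375300, mm10, 549 bp wide, 26624 bp downstream of the Klb start site). Its percentiles were 52.8 and 63.4 in beige and 76.1 and 58.3 in brown. The 4 peaks had a -log10 q of 10.4 to 30.8, so the class also held at a q value under 0.00001. The nearest white summits lay 16462 and 16246 bp away. The nearest start site of any gene was that of Rpl9, at 16067 bp. The 201 bases about its summit are printed because no other region of this pattern in the windows had a higher mean percentile (chr5:65374838-65375038, plus strand).

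Klb intron: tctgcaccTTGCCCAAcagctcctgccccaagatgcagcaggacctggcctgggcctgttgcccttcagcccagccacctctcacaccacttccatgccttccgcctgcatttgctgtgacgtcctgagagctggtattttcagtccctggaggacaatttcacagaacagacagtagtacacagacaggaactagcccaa

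The capitals mark the match TTGCCCAA to the C/EBP consensus TTGCNNAA, which begins 92 bases before the summit. The peroxisome proliferator response element of type DR1 is bound by PPARγ, the target of rosiglitazone, and had no match in this window. It had none in any of the 218 regions and a match in 0.466% of all regions near genes, which says only that the consensus searched was not found in these windows.

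Of the 20 regions of the Klb window, 9 were open in all 6 libraries and 10 followed no condition, 5 of them in 1 library. A pair of intronic regions, 6050 and 8822 bp downstream of the start site, were open in all 6 libraries, with percentiles of 59.9 to 81.2 and 74.0 to 83.8. The first of them ranked higher in both brown libraries (79.1 and 81.2) than in the 4 inguinal ones. The Klb window held 18 peaks in each brown library, 14 and 16 in beige and 14 and 16 in white. This order of brown above all inguinal libraries was shown by 1.30% of all genes. Counted as merged regions, the window held 16 and 15 in brown, 13 and 15 in beige and 12 and 13 in white, so brown and beige tied at 15. Of its 9 shared regions, 6 lay nearer to the start site of another gene.

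The other region open in beige and brown but not white lay 45152 bp upstream of Fgf16 (chrX:105719009-105719270, intergenic). Its percentiles were 54.5 and 31.3 in beige and 58.4 and 41.4 in brown. A -log10 q of 4.94 in beige replicate 2 put it out of this class at a q value under 0.00001. White replicate 2 had a summit of its own 546 bp away, at percentile 37.1. The bases about the summit are chrX:105719027-105719227, plus strand, shown beside the Klb region because both have the same pattern.

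Fgf16 upstream: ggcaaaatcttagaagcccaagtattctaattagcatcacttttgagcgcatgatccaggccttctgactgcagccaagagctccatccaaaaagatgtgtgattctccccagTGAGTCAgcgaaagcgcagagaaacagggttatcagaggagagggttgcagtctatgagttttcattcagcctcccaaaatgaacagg

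The capitals mark TGAGTCA, a match to the AP-1 consensus TGANTCA that begins 13 bases after the summit. AP-1 matches stood in 17.9% of the 218 regions and in 20.1% of all regions near genes, and C/EBP matches in 12.4% and 12.0%, so FGF windows held these motifs about as often as others. The composite of C/EBP and ATF was in 9 of the 218 regions (4.13%) and in 1.26% of all regions. The other consensus sequences searched gave 2.75% and 2.67% for ETS (CCGGAAG), 1.83% and 4.19% for TEAD (ACATTCC), 4.13% and 4.11% for the E-box (CACGTG), 1.83% and 1.42% for EBF and 0% and 0.604% for the glucocorticoid response element. All searches covered both strands from 100 bases before to 100 bases after the summit, and overlapping matches were allowed.

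Regions open in both kinds of inguinal adipocyte but not in brown stood at Fgf7, Fgf10 and Fgfr1. The strongest was 28379 bp upstream of Fgf7, in an intron of Fam227b, which spans the locus on the other strand (chr2:126006149-126006390). Its percentiles were 91.4 and 77.4 in beige and 63.2 and 79.1 in white. The lowest -log10 q was 8.73, so it also held its class at a q value under 0.00001, and the nearest brown summits were 25019 and 28252 bp away. Its bases (chr2:126006179-126006379, plus strand) are shown because it had the highest mean percentile of the 10 regions.

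Fgf7 upstream: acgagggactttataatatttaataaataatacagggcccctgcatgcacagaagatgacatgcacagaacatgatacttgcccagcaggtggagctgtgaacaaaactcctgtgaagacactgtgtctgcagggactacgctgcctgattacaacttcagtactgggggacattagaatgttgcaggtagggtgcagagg

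No consensus searched had a match in these bases. In an intron of Fgf10, 25531 bp downstream of the start site, a region had percentiles of 28.2 and 59.6 in beige and 17.4 and 60.9 in white. The replicates of a condition thus differed by more than the conditions (chr13:118740130-118740330, plus strand).

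Fgf10 intron: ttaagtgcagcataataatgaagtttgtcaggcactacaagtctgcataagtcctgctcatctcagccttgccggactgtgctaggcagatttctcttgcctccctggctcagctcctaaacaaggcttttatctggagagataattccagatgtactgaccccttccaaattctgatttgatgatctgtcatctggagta

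Here too no consensus had a match. White replicate 1 had a -log10 q of only 2.84, and the class was lost at a q value under 0.00001. Another Fgf10 region, 1260 bp downstream of the start site, had low percentiles of 17.8 and 11.5 in beige and 13.3 and 12.7 in white. Both brown libraries had a summit 265 to 282 bp away, and their peaks ended 23 to 50 bp from this region, so that brown peaks adjoined it. The Fgfr1 region, 34129 bp upstream of the nearest Fgfr1 start site, had percentiles of 35.1 and 46.3 in beige and 21.3 and 60.6 in white.

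The remaining regions of this kind were weak. A Fgf7 intron region 4836 bp downstream of the start site, open in white and brown but not beige, had percentiles of 19.9 and 24.7 in white and 4.78 and 39.2 in brown. White adipocytes alone had regions 17908 bp downstream of the Fgf7 start site (54.6 and 14.4) and downstream of the Fgfr2 gene (50.8 and 17.7). Beige adipocytes alone had a region in a Fgf2 intron at percentiles of 3.93 and 1.64, near the bottom of both lists. Peaks of brown replicate 1 and white replicate 1 lay 60 and 182 bp from it. At a q value under 0.00001 no library had a peak in this Fgf2 region. At the Fgf7 region of white adipocytes, each of the 4 other libraries had a summit within 369 to 525 bp.

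**Figure D3:**
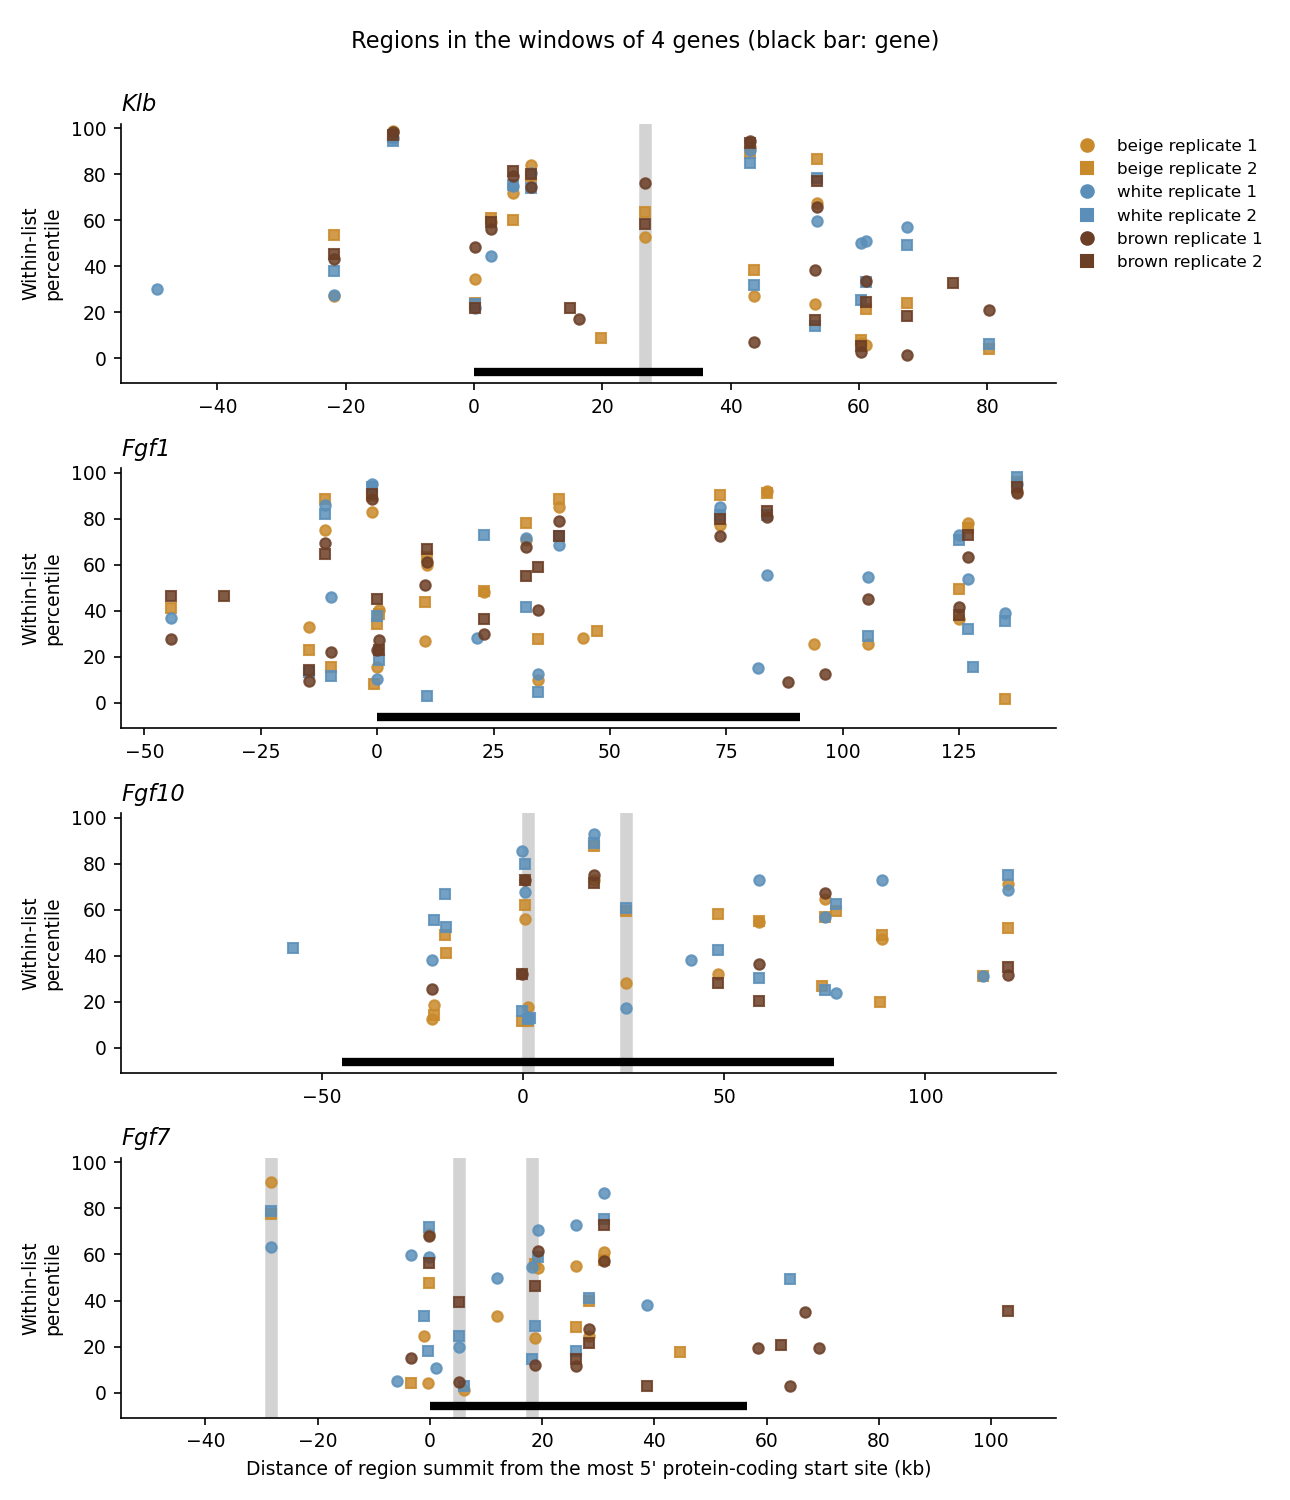
Within-list percentile of the peaks in the windows of Klb, Fgf1, Fgf10 and Fgf7 against the distance of the region summit from the most 5′ protein-coding start site (kb), with 1 symbol per library, the gene as a black bar and regions open by condition on grey. Brown symbols are few across the Fgf10 window, where each brown list has 8 peaks and the inguinal lists 14 to 18.

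The Fgf10 window as a whole was sparser in brown adipocytes. It held 14 and 17 peaks in beige, 15 and 18 in white and 8 and 8 in brown. Both brown counts thus stood below all 4 inguinal counts, as they did for 11.6% of all genes in these shorter brown lists. At 17669 bp downstream of the start site, the strongest region of the window had percentiles of 72.9 and 87.6 in beige, 92.7 and 89.1 in white and 75.0 and 71.6 in brown. At 120553 bp downstream of the start site, past the end of the gene, brown ranked lowest, with 71.0 and 52.1 in beige, 68.4 and 75.1 in white and 31.4 and 35.3 in brown. At a q value under 0.00001 that region kept its beige and white peaks and lost both brown ones.

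Peak counts followed conditions at other members in no single direction. Fgf2 had 29 and 29 peaks in beige, 28 and 24 in white and 22 and 22 in brown, and was the other gene with fewer in brown than in all inguinal libraries. Beige counts were above white counts at Fgf2 and Fgf16, 2 of 10 genes, against 16.1% of all genes. Fgf16 had 4 and 5 peaks in beige and 3 and 2 in white. Beige counts were below white counts at Fgf7, Fgf9 and Fgfr2, 3 of 10 genes, against 10.2%. Fgf7 had 12 and 8 peaks in beige and 14 and 15 in white, Fgf9 had 4 and 6 against 10 and 7, and Fgfr2 had 13 and 16 against 18 and 17. Counted as merged regions, Fgfr2 had 11 and 13 in beige and 13 and 15 in white, a tie at 13. Fgf1, Fgf21 and Fgfr1 had overlapping counts in all these comparisons.

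**Figure D4:**
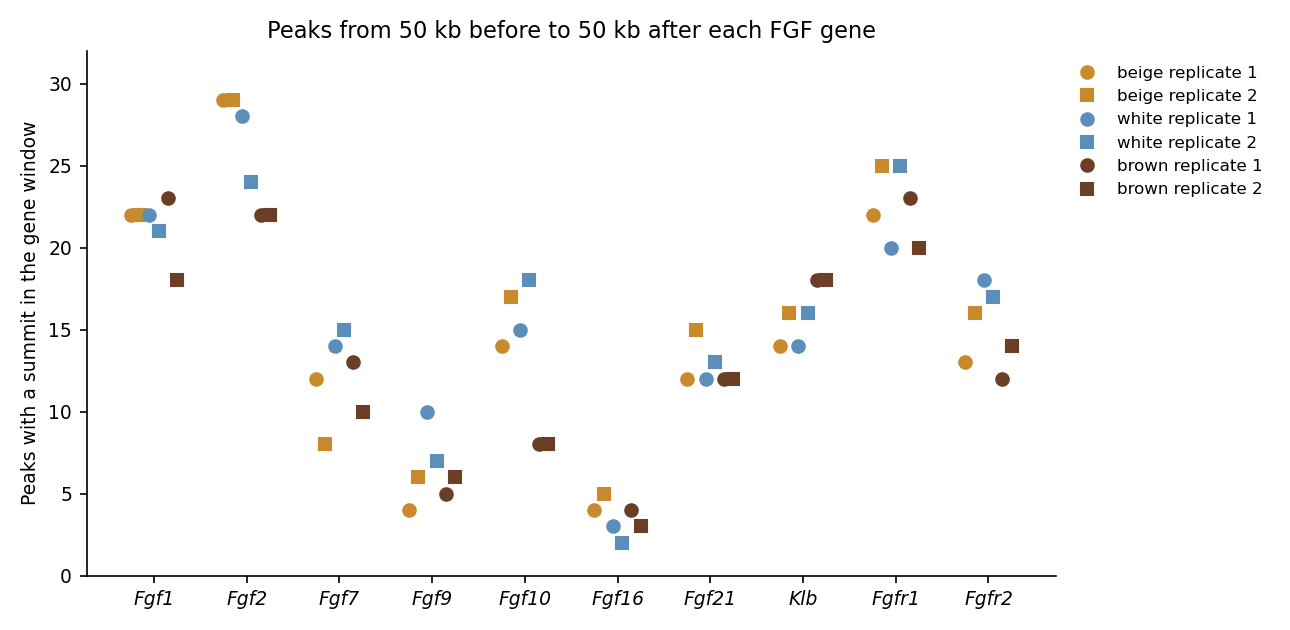
Number of peaks with a summit in the window of each FGF gene, with 1 symbol per library. At Fgf10 the brown lists have 8 peaks each and the inguinal lists 14 to 18, and at Klb the brown lists have 18 each and the inguinal lists 14 to 16.

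In the 75 regions open in all 6 libraries, ranks could be ordered. Both beige ranks stood above both white ranks in 14 (18.7%), against 26.8% of such regions near all genes, and below both in 19 (25.3%), against 21.2%. Both brown ranks stood above all 4 inguinal ranks in 12 (16.0%), against 10.8%, and below all 4 in 5 (6.67%), against 10.9%. Beige above white was thus less frequent than beige below white in the FGF windows, but this turned with the setting. There were 23 above and 16 below when ranked by -log10 q, 15 and 13 at a q value under 0.00001, 38 and 36 without white replicate 1, and 45 and 33 with the longest Fgfr2 transcript. The differences rest on few regions, and 27 of the 75 lay nearer to the start site of another gene.

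The orders were spread over the genes, with beige above white at 7 of the 10 and brown above inguinal at 6. Fgf1 had beige above white in 3 of its 11 shared regions, a share like that over all genes, and Fgf21 in 3 of 9, all nearer to other genes. The 3 at Fgf1 lay nearest to its own start sites. An intron region 12980 bp from the nearest Fgf1 start site had percentiles of 92.1 and 91.4 in beige, 55.7 and 81.5 in white and 80.8 and 83.5 in brown. Another, between the start sites, had 85.0 and 88.5 in beige, 68.8 and 72.5 in white and 79.3 and 72.5 in brown, so beige ranked highest in both. The third, downstream of the gene, had 78.1 and 76.2 in beige, 54.0 and 32.3 in white and 63.4 and 73.2 in brown.

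The Fgf2 and Fgfr1 windows each had 3 regions with brown above all inguinal libraries, of 16 and 14 shared ones. The 3 at Fgf2 lay nearest to its own start sites. At Fgfr1 2 did, and the other lay 6 bp from the start site of Letm2. At Fgf2, those 6605 and 5352 bp upstream of the gene had percentiles of 82.9 and 81.8, and of 68.9 and 80.7, in brown. In the inguinal libraries the first ranged from 59.7 to 68.7, and the second had 62.0 and 35.0 in beige and 26.2 and 11.1 in white. The third lay 547 bp downstream of a Fgf2 start site, with 58.7 and 48.0 in brown and 13.4 to 39.3 in the others. Against this, the Fgf2 window had 5 regions with beige below white, 3 of them nearest to its own start sites. Among these 3 was the intron region 11994 bp downstream of the start site. It had 87.4 and 84.6 in beige, 96.2 and 97.1 in white and 93.7 and 95.5 in brown.

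Fgf7 and Fgf10 had no shared region with beige above white and 1 and 2 with beige below it. The strongest shared region of Fgf7, 30730 bp downstream in its intron, had percentiles of 61.2 and 57.5 in beige, 86.9 and 75.5 in white and 57.3 and 72.9 in brown. At Fgfr1 a region in an intron 11176 bp downstream of the start site had 57.9 and 72.7 in brown and 18.7 to 41.1 in the inguinal libraries, the same order as at its promoter. At Fgfr2 the strongest shared region, 50289 bp downstream of the start site, had 86.2 to 96.3 in all libraries with no order.

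**Figure D5:**
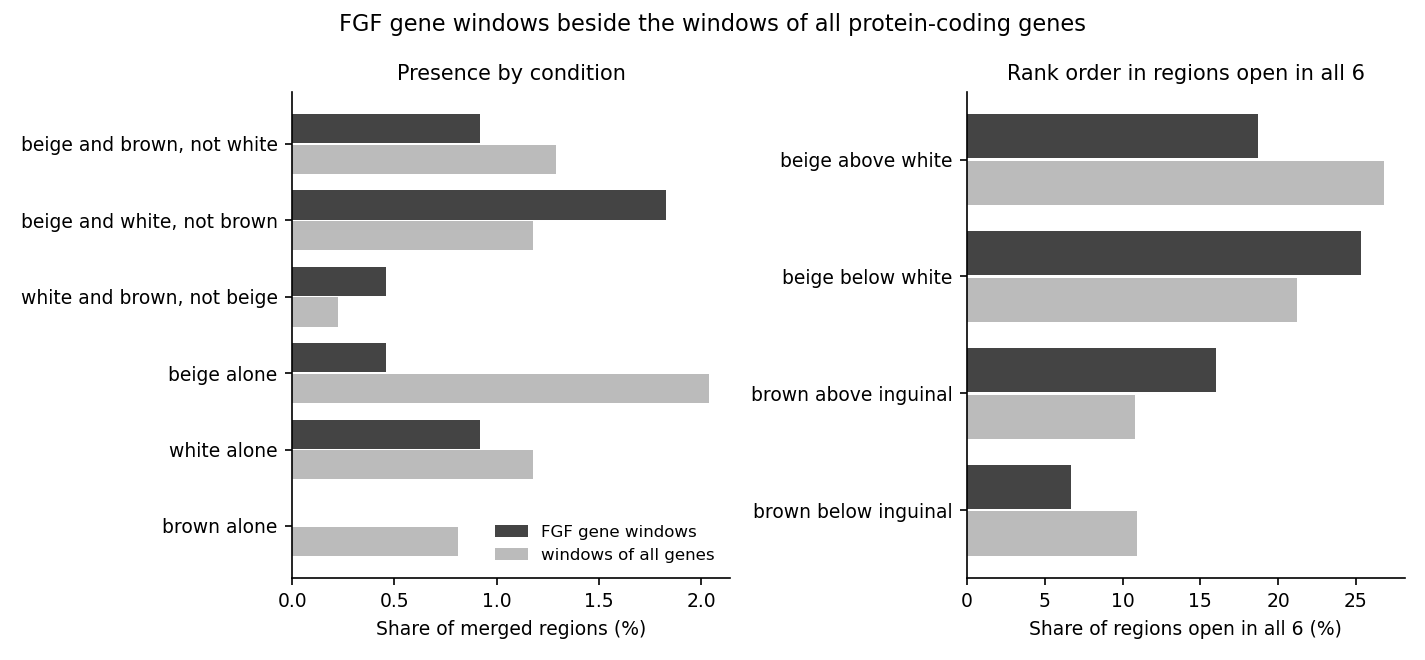
Share (%) of merged regions open by condition (left) and of regions open in all 6 libraries with a given rank order (right), for the FGF gene windows (dark bars) and the windows of all protein-coding genes (light bars). Beige above white holds for 18.7% of shared FGF regions and 26.8% of all, and brown alone for 0 of 218 FGF regions and 0.811% of all.

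Promoters of the other genes of the pathway were mostly open everywhere. Of 36 genes, 30 had a promoter peak in all 6 libraries, against 62.0% of all protein-coding genes, and 0 were open by condition, against 1.03%. All 8 signal transducers, among them Frs2, the docking protein of the receptors, all 9 feedback inhibitors and targets, such as Spry1 and Dusp6, and all 4 further receptors and co-receptors were open in all 6. Of the 11 further ligands, 6 were open in all libraries, 4 in some and Fgf17 in none, and of the 4 intracellular FGF homologous factors, 3 were. Klotho (Kl), the co-receptor for the hormone Fgf23, had percentiles of 33.9 and 63.6 in beige, 59.2 and 45.1 in white and 11.2 and 18.1 in brown, so both brown values were lowest. The promoter of Fgf23 itself had 33.8 and 22.4 in beige, 74.8 and 69.4 in white and 68.2 and 70.2 in brown, with both beige values lowest. Kl and Fgf23 were singled out from the 36 genes after their values were seen. Fgfrl1, a receptor of the same list, had the opposite order to Kl, with 93.2 and 91.6 in brown and 75.3 to 86.0 in the inguinal libraries. How often promoters of the list or of all genes showed such orders was not counted.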

How the data were processed

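ATAC-seq of 2 beige, 2 white and 2 brown adipocyte libraries was used. The authors trimmed and aligned the reads to mm10 with BWA and called peaks per library with MACS2 at a q value under 0.05; these steps are described for beige and white, and GEO's notes list the same tools for all 6. The fold in the deposited lists is a ratio, summit pileup over local background, and their -log10 q also refers to the summit. The lists hold no reads, so precision rests on the number of peaks. Each interval was counted once, at its summit of highest -log10 q.

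Peaks overlapping by 1 bp were merged, with the summit of the highest ranked peak. Gene spans came from the gene records of GENCODE vM21 basic and start sites from its protein-coding transcripts. A window can thus begin more than 50 kb before the first start site used, as at Fgfr1 and Fgf10. Of 21938 genes, 21851 had such a transcript. Fgfr2-217, which spans 2961 kb (support level 5), was left out of the span and start sites of Fgfr2. The code (scipy 1.17.1, pandas 2.3.3 and numpy 2.4.6 in Python 3.11.15) was tested on simulated data. Bases came from GRCm38.p6.

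Named were all members, their regions open by condition, the strongest shared region of each and the promoters most like theirs. Members, gene lists, motifs and some regions were chosen with earlier results of these data known. No test between conditions and no protein comparison was made. Alternatives were the promoter distance, the window, the q value, list length, ranking and libraries left out.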

Additional observations from a re-analysis of the deposited data

How the results depend on the processing

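No paired analysis was possible because conditions were described without testing. The lists hold no reads, so the reads behind each peak are unknown. For the beige and white libraries the study reports mapped reads. Both beige libraries had fewer mapped reads and a lower mapped share than both white libraries. No such values are given for brown. Whether depth shaped the presence of peaks was not tested. Of 199 recomputed counts and medians, 135 stayed within 1.5 times the reported count or within 1 SD between libraries for the median, and 64 moved. Most of those that moved were counts of 0 to 5 regions.

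The median promoter percentile was 68.0 with promoters of 3 kb, 55.8 at a q value under 0.00001, 57.9 with equally long lists, 73.3 when ranked by -log10 q and 65.9 with every deposited summit. With windows of 20 kb, 1 region was open in beige and brown, 2 in beige and white and 1 in white alone, 9 shared regions had beige above white and 2 had brown below inguinal. With windows of 100 kb, 116 regions were open in all 6 libraries and 3 in brown alone, 30 had beige below white and 9 had brown below inguinal. At a q value under 0.01, 2 regions were open in beige alone. At a q value under 0.00001, 2 were open in beige alone, 0 in white and brown, and 2 had brown below inguinal. With equally long lists 0 were open in beige alone and 2 had brown below inguinal. Ranked by -log10 q, 23 shared regions had beige above white and 8 brown below inguinal.

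The order of beige and white in shared regions reversed, with more above than below, when ranked by -log10 q, at a q value under 0.00001, without white replicate 1 and with the longest Fgfr2 transcript.

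With the longest Fgfr2 transcript, an alternative chosen after seeing the data, the windows held 551 regions. Of these, 182 were open in all 6 libraries, 7 in beige and brown, 9 in beige and white, 9 in beige alone, 4 in white alone and 5 in brown alone. Among the shared ones 45 had beige above white, 33 beige below white, 19 brown above inguinal and 21 brown below.

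Leaving out each library in turn asks less of a class by construction. The lowest and highest counts were 9 and 10 for promoters open everywhere, 75 and 84 for regions open everywhere, 2 and 11 for beige and brown, 4 and 7 for beige and white, 1 and 4 for white and brown, 2 and 13 for beige alone, 2 and 17 for white alone and 0 and 10 for brown alone. They were 14 and 38 for beige above white, 19 and 36 for beige below white, 14 and 21 for brown above inguinal and 5 and 13 for brown below. Over these fits the median promoter percentile was 62.0 to 63.3. The summit rule of 250 bp moved no count.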

Other observations

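At a q value under 0.00001, 3 of the 10 regions open by condition kept their class and 6 further regions of the FGF windows gained one. Of those 6, the regions at the Fgf1 and Fgf21 start sites and the region past the end of Fgf10 are described above. A region past the end of Fgfr2, 124558 bp downstream of its start site, was then open in white alone, with percentiles of 45.1 and 69.2 in white and 24.2 in beige replicate 2 at the authors' threshold. In the Fgf1 window, a region 64075 bp downstream of the nearest Fgf1 start site was then also open in white alone, with 39.1 and 35.7 in white and 1.54 in beige replicate 2. A region 14701 bp upstream of Fgf1 was then open in beige alone, with 33.0 and 23.1 in beige, 13.5 in white replicate 2 and 9.67 and 14.3 in brown. All 3 were chosen after their values were seen.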
